A study of Mus musculus with 4 samples.

Results

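The Prdm14 and Zfp42 genes, both markers of naive pluripotency, were examined by the chromatin contacts of the intervals that hold them. An H3K27ac HiChIP count table of mouse embryonic stem cells lists anchors, which are genomic intervals cut at DpnII sites, and loops, which are pairs of anchors joined by sequenced read pairs. The Prdm14 locus was taken as every loop with at least 1 anchor overlapping chr1:13000000-13200000. The Zfp42 locus was taken as every loop with at least 1 anchor overlapping chr8:43200000-43350000 (GRCm38). The Prdm14 interval gave 730 loops from 13 anchors, and the Zfp42 interval gave 199 loops from 10 anchors. Together these were 929 of the 1513030 loops in the table. The word loop is used for any listed pair, whether or not its count exceeds an expectation.

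The libraries came from embryonic stem cell lines derived from DBA/2J mice, called D2, and from C57BL/6J mice, called B6. There were 2 lines per strain and 1 library per line. All 4 lines were grown in serum with LIF, the MEK inhibitor PD0325901 and the GSK3 inhibitor CHIR99021, conditions that hold cells near the naive state. No line was described as edited or otherwise treated, and the comparison the design implies is D2 against B6. The p-values rest on the spread between libraries of different lines, so line and library preparation cannot be told apart. In the edgeR tests this spread was partly shared over all tested features. The 2 lines of a strain stand for that strain.

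HiChIP cuts and religates crosslinked chromatin, pulls down fragments that carry a chosen mark, and sequences the joined ends. H3K27ac is the acetylated histone mark of active promoters and enhancers, so a count records both nearness and the mark at 1 or both ends. Prdm14 encodes a PR-domain zinc-finger regulator that represses FGF receptor signalling and DNA methyltransferase genes in naive stem cells and acts in primordial germ cell specification. Zfp42 encodes REX1, a zinc-finger protein of the YY1 family whose loss of expression is widely used to mark exit from the naive state. Zfp42 lies beside Triml1 and Triml2, tripartite-motif family-like genes, on chromosome 8. Prdm14 lies between Slco5a1, of an organic anion transporter family, and Ncoa2, a nuclear receptor coactivator, on chromosome 1.

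The library totals lay between 2767882 and 2944258 counts. In the check of the cell type, 6 of 8 stem cell markers had an anchor over the start site, with a median level of 9.56 CPM (counts scaled to the library total) per kb of anchor, against 5.70 over all 12891 anchors at protein-coding start sites. The stem cell markers without one were Esrrb and Tfcp2l1. Only 3 of 8 fibroblast markers had one, with a median of 0.870 CPM per kb, and Col1a1, Col1a2 and Col3a1 were among those with none. Among the other lists, 5 of 6 primitive endoderm markers had a median of 4.26 CPM per kb, 4 of 6 trophoblast markers 5.57, and 6 of 6 primed or differentiating markers 3.10. The summed level of the stem cell list was 1837 and 2011 CPM in B6 replicates 1 and 2. It was 2900 and 1893 CPM in D2 replicates 1 and 2, so D2 replicate 1 stood above the other 3 libraries. In the same order, Nanog had 496, 518, 981 and 588 CPM, and Tbx3 had 341, 427, 682 and 389 CPM. Sox2, Fgf4 and Pou5f1 were also highest in D2 replicate 1, the last with 493 CPM against 459 and 478 CPM in B6. Klf4 was not, with 132, 134, 130 and 95.1 CPM. The library name of D2 replicate 1 also carries 10 cyc where the other names carry 8 cyc, a mark the labels do not explain.

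The strongest loop of each locus joined a pair of neighbouring anchors, whose facing ends are shown first. The sites shown bound the anchors, and most of the DpnII sites lay further inside. The Prdm14 pair held 27 and 36 sites, and the Zfp42 pair 19 and 61. Capitals mark the DpnII site, GATC, and each sequence is read from the plus strand of GRCm38. For Prdm14 the gap between the ends lay inside the gene, and for Zfp42 it lay beyond the end of the gene. An anchor is called intergenic where it overlaps no protein-coding gene, and other gene types were left out of that label. 
Prdm14, end of the anchor over the 3′ part of the gene, chr1:13121335-13121364: cctctgcctcctagccactcagatgtGATC
Prdm14, start of the anchor over the start site, chr1:13122831-13122860: GATCtataaaatgaaatttaacatctatac
Zfp42, end of the intergenic anchor, chr8:43289831-43289860: cctcaggtttctttggctcaggtgcaGATC
Zfp42, start of the anchor over the gene, chr8:43290460-43290489: GATCttaggagtgctaagaatagtttatta

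The Zfp42 promoter lay inside the anchor that carried most of the locus. The 250 bases before the RefSeq start site (GRCm38.p6, chr8:43307010-43307259, minus strand) are shown with capitals for the octamer ATTTGCAT, the motif of POU factors such as OCT4, and for the KLF box CCNCNCCC. 
Zfp42 promoter: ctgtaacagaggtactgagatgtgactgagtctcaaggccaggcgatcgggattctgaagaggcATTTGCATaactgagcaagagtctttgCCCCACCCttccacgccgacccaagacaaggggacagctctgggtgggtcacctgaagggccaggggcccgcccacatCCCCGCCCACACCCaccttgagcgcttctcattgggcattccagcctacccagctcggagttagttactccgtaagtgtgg
The octamer began 186 bases before the start site, and 1.601% of the 32851 RefSeq promoters held one on either strand within the same 250 bases. The KLF box occurred 3 times, with 2 of the matches overlapping, and 45.9% of promoters held at least 1. The letters TTCNNNGAA (STAT), TCAAGGTCA (ESRRB) and CCATNTT (the core of YY1 sites) had no match in this stretch on either strand. Among promoters, 7.02%, 0.387% and 12.4% held them. A match is a description of letters and was not tested for binding. The promoter also held 1 DpnII site, 206 bases before the start site, which lay within the anchor.

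The Prdm14 interval was more heavily connected than the Zfp42 interval in every library. It gathered 997 counts in B6 replicate 1, 1004 in B6 replicate 2, 865 in D2 replicate 1 and 1002 in D2 replicate 2. The Zfp42 interval gathered 429, 450, 573 and 491 counts in the same libraries. In proportion to library totals these were 343, 358, 313 and 340 CPM for Prdm14 and 148, 161, 207 and 167 CPM for Zfp42. The Prdm14 interval is 200 kb long and the Zfp42 interval 150 kb. Among all tiles of 200 kb tested, the Prdm14 interval stood at percentile 81.8 of the count, and among tiles of 150 kb the Zfp42 interval stood at percentile 72.2. Loops with a single count were 263 of 730 at Prdm14, 36.0%, and 83 of 199 at Zfp42, 41.7%, against 38.7% over the whole table. The share of counts in loops with at least 20 counts differed more. It was 32.8% at Prdm14 and 70.1% at Zfp42, against 58.1% over the whole table.

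**Figure D1:**
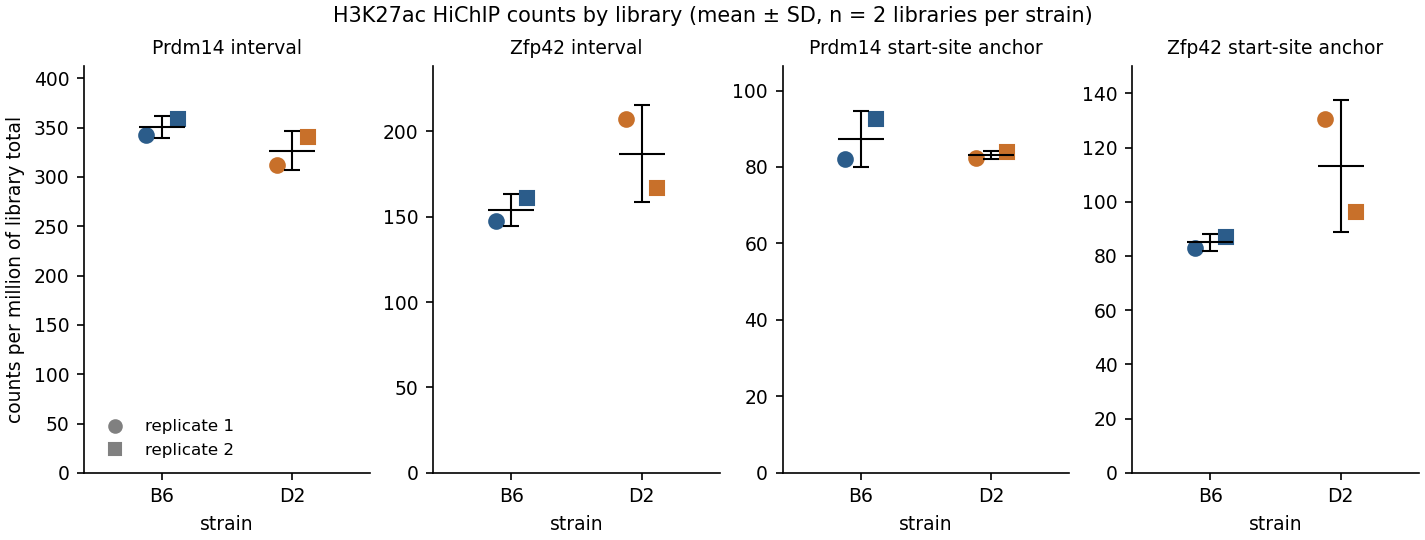
HiChIP level in CPM of library total (y axis, from 0) for each library of B6 and D2 (points), with the strain mean and SD (bars, n = 2 libraries), for the 2 intervals and the 2 start-site anchors. Both D2 libraries lie below both B6 libraries at the Prdm14 interval and above them at the Zfp42 interval and start-site anchor, where D2 replicate 1 is the highest of the 4.

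At the Prdm14 locus, 3 anchors held most of the signal. The anchor over the start site, chr1:13122831-13136219, covers the 5′ part of the gene on the minus strand (gene ENSMUSG00000042414.7, start site at 13127163). It had 239, 259, 228 and 247 counts in B6 replicates 1 and 2 and D2 replicates 1 and 2, the highest level of the interval in every library. The anchor at chr1:13008689-13021335, which overlaps no protein-coding gene and lies 112 kb from the start site toward lower coordinates, had 231, 228, 192 and 230 counts. The anchor over the 3′ part of the gene, chr1:13110868-13121361, had 168, 176, 139 and 162 counts. The counts of the first and second of these overlapped over the 4 libraries, and those of the third lay below both. The other 10 anchors of the interval, 4 intergenic and 6 inside Ncoa2, held from 98 to 435 counts over the 4 libraries. Per kb of anchor the order was different. The start-site anchor had 6.36 CPM per kb, while the small anchor at chr1:13140401-13144161, in the 3′ part of Ncoa2, had 9.59 and an intergenic one at chr1:13028119-13030722 had 9.52.

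By counts, the Zfp42 locus rested on a single anchor. The anchor chr8:43290460-43311247 holds the whole gene (ENSMUSG00000051176.6, minus strand, start site at 43306980) and had 241, 244, 361 and 283 counts in B6 replicates 1 and 2 and D2 replicates 1 and 2. It took part in 57.8% ± 3.76 (SD, n = 4 libraries) of all counts of the locus, against 25.2% ± 1.08 for the Prdm14 start-site anchor. The next anchor, chr8:43282032-43289857, lies beyond the 3′ end of the gene and had 104, 118, 134 and 135 counts. The other 8 anchors, all intergenic, held from 2 to 310 counts over the 4 libraries. The smallest was chr8:43311781-43313634, a neighbour of the start-site anchor on the upstream side, with 1 count in each D2 library and none in either B6 library. Its 2 counts placed it at percentile 0.573 of all anchors, although its GC content of 52.3% was at percentile 92.0. Upstream of it, chr8:43319410-43323164 had 28, 28, 50 and 43 counts. The Zfp42 start-site anchor was 20787 bp wide, at percentile 96.4 of all anchors. Per kb of anchor its level, 4.76 CPM, was below that of the Prdm14 one. It was also below the 5.49 CPM per kb of the next anchor, chr8:43282032-43289857. The part of its width in its counts was not tested.

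The median anchor width was 3760 bp at Prdm14 and 3776.5 bp at Zfp42, near the 4078.5 bp of all 56562 anchors. The anchors with most counts were wider than most. The Prdm14 start-site, intergenic and 3′ anchors named above were at percentiles 91.8, 91.0 and 87.8 of width. The Zfp42 start-site anchor was at percentile 96.4. The median GC content was 45.3% at Prdm14, 41.9% at Zfp42 and 45.2% over all anchors. They differed in their surroundings: a Prdm14 anchor had a median of 119 other anchors within 2 Mb to which a loop could form, and a Zfp42 anchor 50, against 112 over all anchors. The share of those actually contacted was alike, with medians of 52.1% at Prdm14 and 47.5% at Zfp42, against 44.0% over all anchors. The larger number of partners at Prdm14 thus stood beside a larger number of anchors on offer.

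Within the Prdm14 interval, the strongest loop joined the start-site anchor to the anchor over the 3′ part of the gene, over 13.4 kb, with 37, 50, 34 and 37 counts. The second joined the start-site anchor to the intergenic anchor chr1:13008689-13021335 over 114.5 kb, with 17, 24, 19 and 22 counts. This was 6.77 times the mean count of possible anchor pairs at that distance over the whole table, an expectation that takes no account of anchor width. The same intergenic anchor also contacted the 3′ anchor of the gene, with 10, 14, 10 and 14 counts. In both loops the strains overlapped. In the strongest loop both D2 libraries were below both B6 libraries in CPM, narrowly, with 12.7 in B6 replicate 1 and 12.6 in D2 replicate 2. The third joined the start-site anchor to the Ncoa2 anchor chr1:13140401-13144161, with 12, 21, 26 and 14 counts. Another 4 of the 8 strongest loops formed a group among the intergenic anchors and the Slco5a1 start-site anchor, chr1:12989116-12994687, at distances from 5.92 to 23.1 kb. Both D2 libraries were above both B6 libraries in the 5.92 kb loop, and the strains overlapped in the others of this group.

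The eighth loop of Prdm14 by count was the one that reached farthest among these. It joined the start-site anchor to chr1:13626359-13671029, an anchor of 44670 bp over the start sites of Lactb2, which encodes a mitochondrial ribonuclease, and Xkr9, of the XK-related scramblase family. Its counts were 9, 12, 14 and 16 over 519 kb, 25.8 times the distance expectation. The same distal anchor was also joined to the 3′ anchor of Prdm14, with 10, 11, 10 and 14 counts, and to the intergenic anchor chr1:13008689-13021335, with 20, 9, 7 and 8 counts over 634 kb, the longest tested loop of the locus. All 3 of these loops had an authors' q-value below 0.01 in all 4 libraries. Both D2 libraries were above both B6 libraries in the 519 kb loop and below both in the 634 kb loop. The strains overlapped in the loop to the 3′ anchor. A wide anchor can collect more read pairs, and the part of its width in these counts was not tested.

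At Zfp42, the strongest loop joined the start-site anchor to its neighbour chr8:43282032-43289857 over 14.9 kb, with 63, 66, 71 and 74 counts. The second joined it to the Triml2 start-site anchor, chr8:43173801-43195633, over 116 kb, with 50, 53, 98 and 58 counts, 21.4 times the distance expectation. Every D2 library was above every B6 library in both loops, and in the Triml2 loop D2 replicate 1 was far above the other D2 library. The third joined the start-site anchor to the intergenic anchor chr8:43259842-43267957 over 37.0 kb, with 27, 21, 27 and 22 counts. The Triml2 anchor also contacted 3 of the intergenic anchors among the 8 strongest loops, so the loops with most counts formed a block between Triml2 and Zfp42. On the upstream side of the gene, the start-site anchor contacted chr8:43328422-43332221 with 10, 17, 23 and 23 counts and chr8:43349906-43358490 with 14, 14, 24 and 18 counts.

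A Zfp42 loop also crossed almost the whole range of the table, which lists distances from 5 kb to just under 2 Mb. The start-site anchor and chr8:41363756-41396250, an anchor of 32494 bp over the start site of Asah1, the gene for acid ceramidase, were joined with 10, 11, 18 and 12 counts over 1921 kb. That was 121 times the distance expectation. Both D2 libraries were above both B6 libraries, by 1 count in the closest case. The longest tested loop, to the nearby anchor chr8:41334646-41358482 at 1954 kb, had 8, 6, 8 and 2 counts. Both had an authors' q-value below 0.01 in all 4 libraries.

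The loci differed in reach, the median distance of a count. For Prdm14 it was 255.1 kb in B6 replicate 1, 228.9 kb in B6 replicate 2, 205.7 kb in D2 replicate 1 and 224.3 kb in D2 replicate 2. For Zfp42 it was 80.8, 79.2, 86.7 and 74.8 kb. The Prdm14 value was the larger in each of the 4 libraries, and the difference was 148.2 kb ± 22.6 (SD, n = 4). An exact two-sided sign-flip permutation test over libraries gave p = 0.125, the smallest that 4 libraries allow. Over all loops of the table the median lay between 104.9 and 120.4 kb, so Prdm14 was above and Zfp42 below it in every library. The intervals differ in length, and the part of this in the reach was not tested. For counts that left the interval the difference was 205.6 kb. For the start-site anchors alone it was 77.0 kb, with medians of 122.1 kb ± 8.93 for Prdm14 and 45.1 kb ± 9.46 for Zfp42 (SD, n = 4).

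The shape of the distance profile differed more than the medians. At Prdm14, 34.0% ± 1.77 (SD, n = 4) of the counts spanned 200 to 500 kb, against 3.15% ± 0.806 at Zfp42 and 19.2% ± 0.659 over all loops. At Zfp42, 41.3% ± 1.57 spanned less than 50 kb, against 20.5% ± 1.47 at Prdm14. Zfp42 then held almost nothing from 500 kb to 1 Mb, with 0 to 5 counts per library and a mean share of 0.460%, and 17.4% ± 2.92 from 1 to 2 Mb. Prdm14 had 8.46% ± 1.57 and all loops 7.28% ± 0.447 in that last range. The library values of the 2 loci did not overlap in these ranges.

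**Figure D2:**
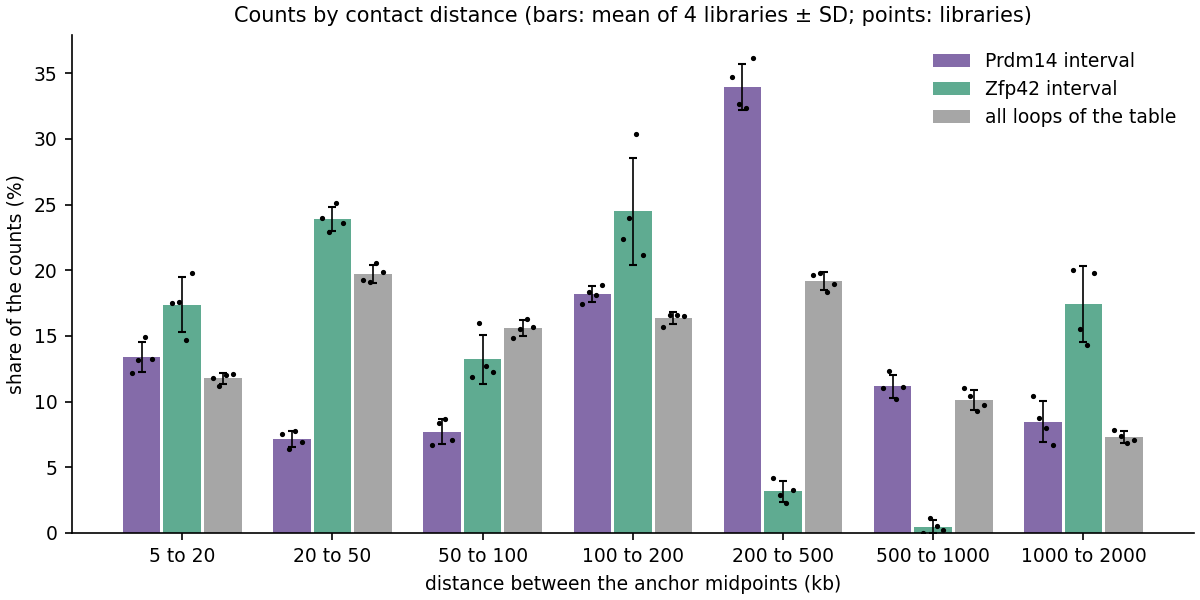
Share of counts (y axis, percent) by distance between anchor midpoints (x axis, kb) for the Prdm14 interval, the Zfp42 interval and all loops; bars are means of 4 libraries with SD, and points are libraries. Prdm14 peaks from 200 to 500 kb with 34.0%, where Zfp42 has 3.15%, and Zfp42 rises again to 17.4% from 1 to 2 Mb.

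Between strains, the reach of Prdm14 was compared over 2 libraries each. The medians averaged 242.0 kb ± 18.5 in B6 and 215.0 kb ± 13.2 in D2 (SD, n = 2 each), and both D2 libraries were below both B6 libraries. The exact two-sided permutation test gave p = 0.333, the smallest that 2 libraries per strain allow. The reach over all loops moved the same way, with means of 119.9 kb in B6 and 107.6 kb in D2. The part of this shift in the Prdm14 value was not tested. With the start-site anchor alone the difference was 1.97 kb, with D2 the higher, and with only loops of q below 0.01 it was 18.7 kb, also with D2 the higher. For Zfp42 the means were 80.0 kb ± 1.16 in B6 and 80.7 kb ± 8.40 in D2, which overlapped (exact permutation p = 1.0).

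Outside the intervals, Prdm14 reached 104 partner anchors and Zfp42 reached 39. At Prdm14 these were spread out, and the strongest took 9.64% of the 2811 outside counts. At Zfp42 the Triml2 anchor alone took 56.0% of 1074. The 10 strongest partners took 50.9% at Prdm14 and 86.7% at Zfp42. Counts left Prdm14 in both directions, with 38.7% ± 0.856 (SD, n = 4) toward lower coordinates, whereas 85.3% ± 3.06 of the outside counts of Zfp42 went that way. Anchors over protein-coding start sites received 39.0% ± 2.06 of the outside counts of Prdm14 and 73.5% ± 4.13 of those of Zfp42. Over the table they were 46.2% ± 1.70 of all anchor ends, each weighted by its counts. The Triml2 anchor, chr8:43173801-43195633, ends just below the edge of the Zfp42 interval at 43200000. It lies on the lower side and over a start site, so it weighs heavily in both Zfp42 shares, which were not computed without it.

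The partner genes of Prdm14, counted at start-site anchors outside the interval, numbered 9. Lactb2 and Xkr9, which share the anchor 522 kb away, were first with 72, 68, 58 and 73 counts. Sulf1, which encodes a heparan sulfate sulfatase, had 71, 58, 50 and 70 counts over 3 anchors, the nearest 385 kb away. Ncoa2, the neighbour on the higher side, had 65, 67, 37 and 68 counts. D2 replicate 1 was the lowest library at these 4 genes, and the strains overlapped at each. Slco5a1, the neighbour on the lower side, had 48, 47, 46 and 67 counts. Tram1, which encodes a protein of the endoplasmic reticulum translocation machinery, had 21, 25, 28 and 16 counts. Relative to the distance expectation the order was different. The Slco5a1 anchor was at 0.949 times it, and the 2 Ncoa2 anchors were at 1.22 and 1.50. The Lactb2 and Xkr9 anchor was at 9.57, the Tram1 anchor at 2.76, and the 3 Sulf1 anchors at 3.31, 1.48 and 0.590. The other 3 genes, among them the developmental regulator Eya1 and A830018L16Rik, had from 7 to 29 counts over the 4 libraries. Anchors in introns of Ncoa2 and over exons of Lactb2 and Sulf1 also ranked among the 10 strongest partners, so start sites were only a part of the contacts.

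Zfp42 had 6 partner genes. Triml2 was first with 129, 137, 208 and 127 counts. D2 replicate 1 was above the other 3 libraries, and D2 replicate 2 was the lowest. Asah1 had 19, 25, 30 and 28 counts. Fat1, which encodes an atypical cadherin and lies 1632 kb away on the other side, had 9, 5, 15 and 15 counts over 2 anchors. Both D2 libraries exceeded both B6 libraries at Asah1 and at Fat1, on few counts. Frg1, beside Asah1, had 9, 6, 3 and 9 counts, the melatonin receptor gene Mtnr1a had 5, 4, 3 and 7, and the centrosomal gene Pcm1 had 1 count in all.

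**Figure D3:**
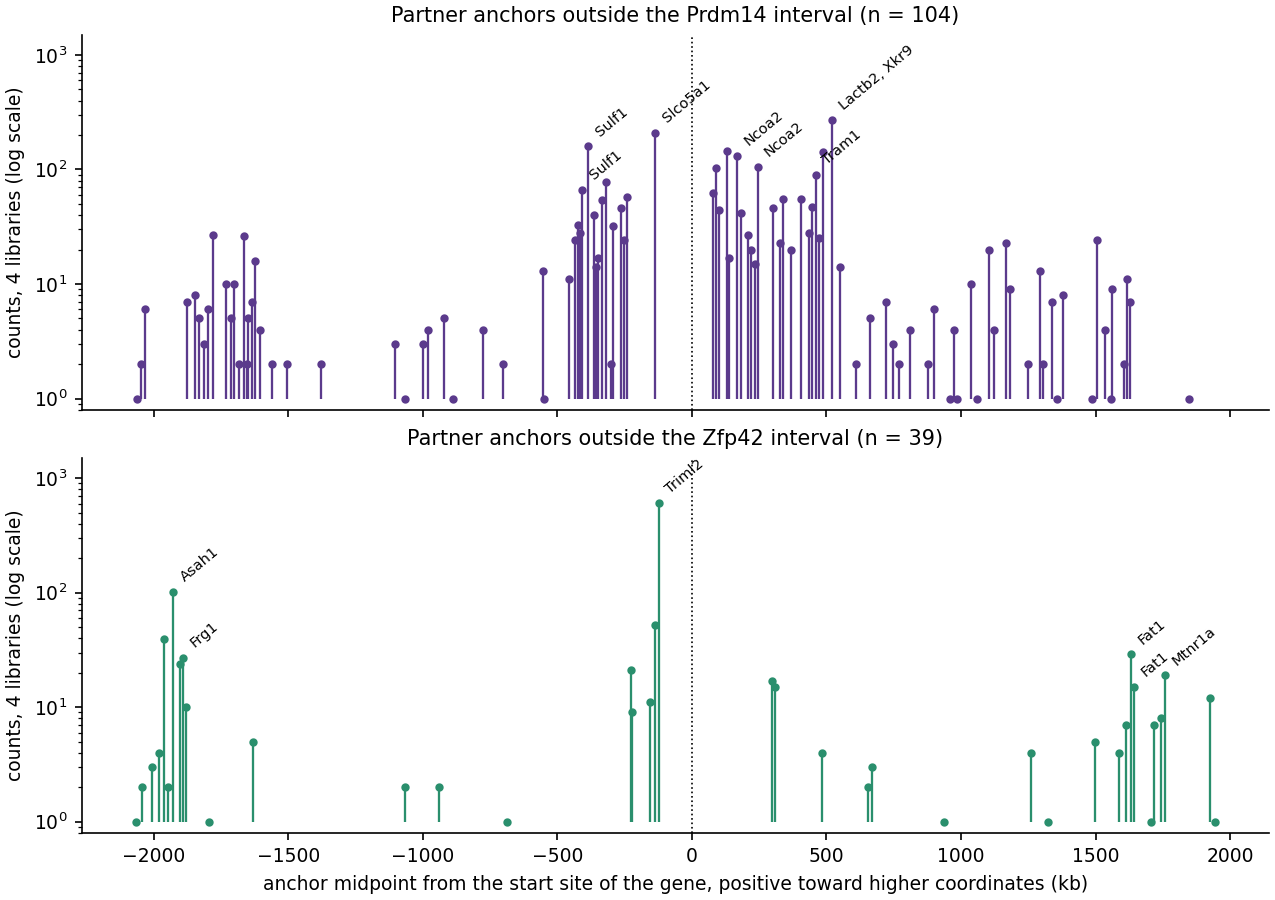
Counts over 4 libraries (y axis, log scale) of each partner anchor outside the Prdm14 interval (104 anchors) and the Zfp42 interval (39 anchors) by its distance from the start site of the gene (x axis, kb), with the main partner genes named. Prdm14 has partners on both sides, the 10 strongest of them within 522 kb, while Zfp42 has Triml2 at 601 counts and clusters near Asah1 and Fat1 with little between.

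The long contacts of Zfp42 were set against all anchor pairs that could have formed. From 1500 to 2000 kb below the start site there were 9 anchors with 214 counts, 19.9% of the outside counts, where the distance expectation was 37.0, a ratio of 5.79. The library counts there were 57, 47, 55 and 55. From 1500 to 2000 kb above it there were 12 anchors with 103 counts, a ratio of 2.08. Between 500 and 1500 kb on the lower side only 4 anchors were listed, with 5 counts in all. The ratio was 0.136 from 1000 to 1500 kb and 0.116 from 500 to 1000 kb there, so few anchors and few counts per anchor went together. The largest stretch without any anchor near Zfp42 was 460.8 kb, against 237.6 kb near Prdm14. At Prdm14 the ratio was 1.43 from 500 to 1000 kb on the higher side, where 13 anchors gave 322 counts, and 1.38 from 1500 to 2000 kb on the lower side. It was 0.152 and 0.179 in the windows from 1000 to 1500 kb and from 500 to 1000 kb below the start site.

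The authors' q-values, 1 per pair and library, gave a second view of the same counts. At Prdm14, 161 loops had a value below 0.01 in at least 1 library, and 19 of them, 11.8%, in all 4. At Zfp42 the numbers were 44 and 8, or 18.2%, against 14.4% over the table. Loops called in both B6 libraries and neither D2 library numbered 3 of 161 at Prdm14 and 0 of 44 at Zfp42, against 3.96% over the table. Those called in both D2 libraries and neither B6 library numbered 4 and 2, against 3.39%.

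For the strain comparison, loops with at least 20 counts over the 4 libraries were tested by quasi-likelihood in edgeR, and p-values were adjusted by Benjamini-Hochberg over all 108034 of them. None of the 30 Prdm14 loops and none of the 19 Zfp42 loops had an adjusted p below 0.05, where 1.45% of all tested loops did. DESeq2 gave an adjusted p to only 1 of the Prdm14 loops and 3 of the Zfp42 loops and called none of these, where it called 0.605% of the 15875 loops it adjusted. At an unadjusted p below 0.05 edgeR listed 1 loop per locus, where 11.7% of all tested loops were listed. With library totals and no TMM factors it listed 4 Zfp42 loops and 1 Prdm14 loop. With TMM over all features it listed 4 and 0. The share over all tested loops is not given for these 2 settings. Over the tested loops the median log2 fold change, D2 over B6, was -0.14 at Prdm14, with 11 of 30 above 0. It was 0.41 at Zfp42, with 12 of 19 above 0. Over all tested loops it was 0.02, with 51.1% above 0. The Zfp42 median was 0.08 without D2 replicate 1, 0.13 without B6 replicate 1 and 0.63 without D2 replicate 2, and the Prdm14 median was -0.05, -0.23 and -0.29 in the same order. The tested loops were 4.11% of the Prdm14 loops and 9.55% of the Zfp42 loops, so these medians describe the strong loops alone. The strains did not overlap at 8 Prdm14 loops and 9 Zfp42 loops, where 41.7% of all tested loops did not. D2 was the higher strain at 3 of those 8 and at all 9 of the Zfp42 loops, where 23.8% of all tested loops had both D2 libraries above both B6 libraries.

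The loops with the smallest p at the 2 loci went in opposite directions. At Prdm14 it was the 634 kb loop from the intergenic anchor to the Lactb2 and Xkr9 anchor, with a log2 fold change of -1.003 ± 0.48 (SE) and an edgeR adjusted p of 0.370. Without B6 replicate 1 its value was -0.35, and without B6 replicate 2 it was -1.45. The start-site anchor's own loop to the same distal anchor had a log2 fold change of 0.44 ± 0.44 (SE), so loops that shared 1 end had values on either side of 0. At Zfp42 it was the loop from the start site to Triml2, with 0.54 ± 0.25 (SE) and an edgeR adjusted p of 0.356. Without D2 replicate 1 its value was 0.06, and without D2 replicate 2 it was 0.89 with an adjusted p of 0.0209. Over all alternatives the adjusted p of that loop ran from 0.0209 to 0.979.

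**Figure D4:**
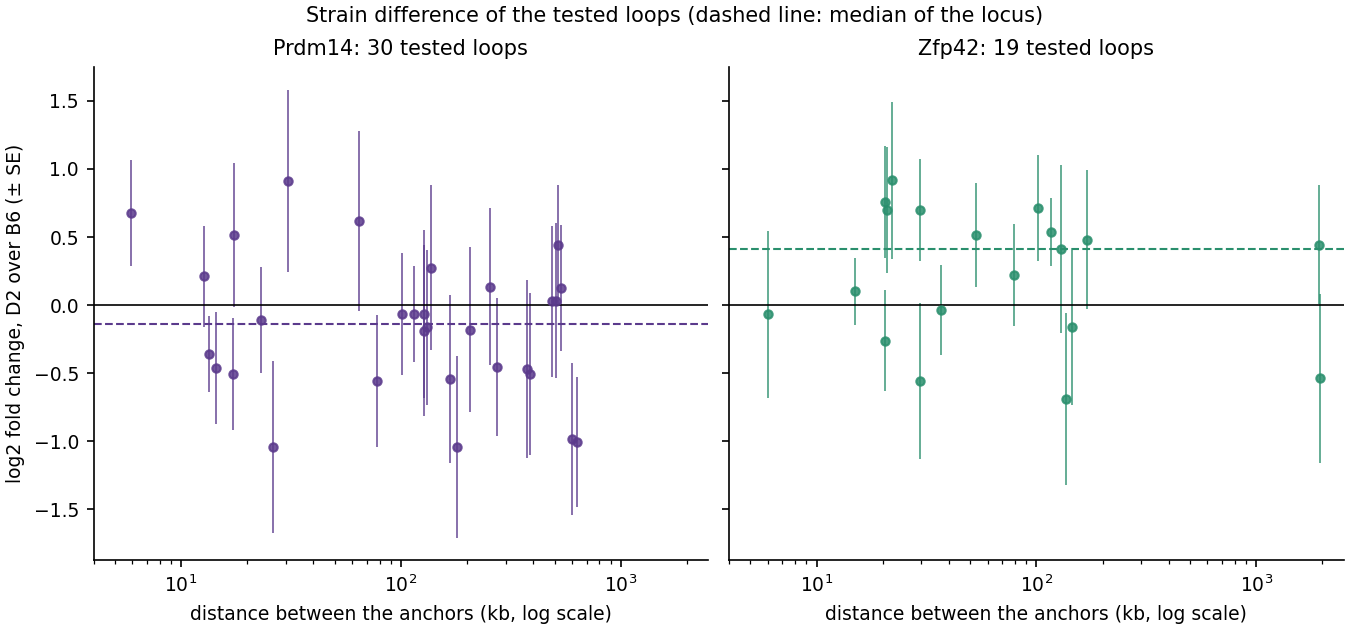
Log2 fold change, D2 over B6, with SE (y axis) of each tested loop by distance (x axis, kb, log scale), for 30 Prdm14 loops and 19 Zfp42 loops; the dashed lines are the medians, -0.14 and 0.41, the latter 0.08 without D2 replicate 1. Points of both loci lie on both sides of 0, and none passed the threshold of an adjusted p below 0.05.

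Summed per anchor, the 13 Prdm14 anchors and 9 tested Zfp42 anchors also had no call by edgeR, where 9.75% of all tested anchors were called. At an unadjusted p below 0.05 there were 0 of 13 and 2 of 9, against 21.9% of all tested anchors. DESeq2 called 0 and 0 after adjustment, against 2.52% of all. At Prdm14, 11 of 13 anchors had a log2 fold change below 0, with a median of -0.06, and the start-site anchor was at -0.03 ± 0.16 (SE, adjusted p = 0.941). At Zfp42, 7 of 9 were above 0, with a median of 0.28. Over all 51820 tested anchors, 25582 were below 0 and 26238 above, with a median of 0.00607. The strains did not overlap at 3 Prdm14 anchors and 7 Zfp42 anchors, where 49.5% of all tested anchors did not, and D2 was the higher strain at 1 and 6 of them, where 21.5% of all did so. The anchors of a locus share loops and are not independent of each other.

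At the Zfp42 start-site anchor the strain difference was 0.46 ± 0.17 on the log2 scale (SE), D2 over B6, with an adjusted p of 0.0769 by edgeR. Its level was 82.9 and 87.1 CPM in B6 and 130.4 and 96.1 CPM in D2, so both D2 libraries were above both B6 libraries and D2 replicate 1 stood apart. Without D2 replicate 1 the value was 0.16 with an adjusted p of 0.674, and without D2 replicate 2 it was 0.71 with an adjusted p of 6.93e-05. The upstream anchor chr8:43319410-43323164 had 0.77 ± 0.27 (SE, adjusted p = 0.0593), and 0.55 without D2 replicate 1 with an adjusted p of 0.405. The adjusted p over the alternatives ran from 6.93e-05 to 0.674 for the first and from 0.0212 to 0.531 for the second. D2 replicate 1 was also the library with the highest sum over the stem cell list, and the part of this in the Zfp42 values was not tested.

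For the whole interval, the mean Prdm14 level was 350.6 CPM ± 11.1 over the B6 libraries and 326.4 CPM ± 19.7 over the D2 libraries (SD, n = 2 each). The log2 fold change was -0.08 ± 0.10 (SE), with an edgeR adjusted p of 0.651 over 9201 tiles, of which 18% were called. For Zfp42 the means were 154.1 CPM ± 9.30 over the B6 libraries and 186.9 CPM ± 28.5 over the D2 libraries. The difference was 0.30 ± 0.12 on the log2 scale (SE), and its edgeR adjusted p over 11538 tiles was 0.0613, where 17.7% of tiles were called. Both D2 libraries were above both B6 libraries, but without D2 replicate 1 the value was 0.11 with an adjusted p of 0.633, and without D2 replicate 2 it was 0.49 with 0.132. Over the alternatives its adjusted p ran from 0.0526 to 0.633.

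The strain differences of the 2 loci were compared directly through the log2 ratio of Prdm14 to Zfp42 counts within each library. It was 1.22 and 1.16 in B6 and 0.59 and 1.03 in D2. Both D2 libraries were below both B6 libraries, by 0.38 on average, and the exact two-sided permutation test gave p = 0.333, the smallest possible. Without D2 replicate 1 the difference was -0.16, and without D2 replicate 2 it was -0.59.

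Among 26 genes of the naive network and of PRDM14 function, 20 had an anchor over a start site. Klf2, Klf5, Esrrb, Tfcp2l1, Tet2 and Cbfa2t2 had none. Of the 20, 2 were called higher in D2 by edgeR and 0 lower, where 4.39% of all tested start-site anchors were called higher. Their median log2 fold change was 0.14, with 16 of 20 above 0, against 0.11 over all start-site anchors. The 2 were Nanog, a core homeobox factor, with 1443, 1452, 2714 and 1732 counts and a log2 fold change of 0.68 ± 0.21 (SE, adjusted p = 0.0263), and Sox2, the HMG-box partner of OCT4, with 503, 596, 918 and 713 counts and 0.62 ± 0.18 (SE, adjusted p = 0.0185). D2 replicate 1 was the highest library at both, as at Zfp42. Pou5f1, which encodes OCT4, had a log2 fold change of -0.12 ± 0.19 (SE). Among the genes that PRDM14 is known to repress, Dnmt3a had 3 start-site anchors, and the value of only 1 is given. That anchor had 0.05 ± 0.16 (SE, edgeR adjusted p = 0.896). Dnmt3b had 0.17 ± 0.16 and Dnmt3l 0.46 ± 0.17 (SE, edgeR adjusted p = 0.594 and 0.0705). Fgfr1 had 0.23 ± 0.17 and Fgfr2 0.06 ± 0.24 (SE, edgeR adjusted p = 0.466 and 0.922).

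The start-site anchors most like these by pattern were found by the root mean square difference of centred log2 CPM over the 4 libraries, among start-site anchors of a level within 2-fold. For Prdm14 they were those of Srprb, Stk35 and Phf3, with differences of 0.00633, 0.00904 and 0.0107 against a median of 0.180 over 4571 anchors. For Zfp42 they were an anchor shared by Wdr77, Atp5f1 and Ovgp1, with 0.0183, an anchor shared by Psmb1 and Tbp, with 0.0227, and that of Zfp958, with 0.0246, against a median of 0.229 over 4327. With only 4 libraries and so many anchors compared, close matches are a description of the pattern. The Prdm14 pattern was nearly flat, and that of Zfp42 had its peak in D2 replicate 1.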

How the data were processed

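H3K27ac HiChIP was compared between 2 B6 and 2 D2 embryonic stem cell lines, with read pairs of 75 bp. The authors deposited raw counts per anchor pair for the 4 libraries, and, in files of single libraries, the same counts with a value from 0 to 1 taken as the q-value of the authors' loop caller. HiC-Pro 2.11.4, DESeq2 and mm10 are named in the submitters' processing notes; the loop caller's settings are not given in the sources used here. All 56562 anchors began and ended at GATC in GRCm38. Genes came from GENCODE M21 and promoters from RefSeq (GRCm38.p6).

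Loops, anchors and tiles with at least 20 counts were tested over the whole table with edgeR 4.0.16 (limma 3.58.1, R 4.3.3), TMM and strain as the only term, after a check on simulated data. DESeq2 1.42.0 was an alternative. CPM is per library total, while the main edgeR fits took library sizes as sums over the features tested. Described were all anchors, the weaker ones as a range, and by name up to 8 loops and 8 partner genes per locus by count, the longest tested loop, and the fixed gene lists; loops beyond these were chosen after their values were seen. The members and lists were chosen with earlier results of these data known. The other alternatives were library totals without TMM, TMM over all features, no count minimum or one of 50, a replicate block, each library left out, q below 0.01, at least 2 counts, the start-site anchor alone and outside contacts alone.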

Additional observations from a re-analysis of the deposited data

How the results depend on the processing

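Both interval totals kept their direction and stayed above an adjusted p of 0.05, under the 11 alternatives run for each. Counts of calls at Prdm14, for loops and for anchors, were 0 under all 10 alternatives, although DESeq2 gave an adjusted p to only 1 of the 30 loops. Leaving out 1 library at a time gave 0 to 1 called loops and 0 to 2 called anchors at Zfp42, the calls coming without D2 replicate 2, where calls over the whole table also rose, to 1.88% of loops and 14.8% of anchors. With library totals and no TMM factors 1 Zfp42 anchor, the start-site one, was called (0.41, adjusted p = 0.0453), with 11.2% of all anchors. With the replicate block 2 Zfp42 anchors were called, the start-site one (0.44, adjusted p = 0.0401) and the upstream one (0.77, adjusted p = 0.0419), with 11.4% of all anchors. Replicate numbers mark different lines, and the labels state no pairing by number. Same-numbered deviations had correlations of -0.05 for loops and 0.00205 for anchors. These rest on 1 difference per strain and cannot decide whether same-numbered libraries shared a batch. With the replicate block the interval totals were -0.08 for Prdm14 and 0.29 for Zfp42.

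The D2 minus B6 reach of Prdm14 was 18.7 kb with q below 0.01 and 1.97 kb with the start-site anchor alone. The reach difference between the loci was 98.0 kb with at least 2 counts, 316.0 kb with q below 0.01, 77.0 kb with the start-site anchor alone and 205.6 kb outside the interval. The ratio of partner anchors, Prdm14 to Zfp42, was 2.67. It was 1.75 for partners reached by a single loop of at least 20 counts, and 4.75 for partners with at least 20 counts summed over their loops (38 and 8), an alternative chosen after seeing the data.

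Single features changed sign 17 times, each at an adjusted p of 0.924 or above. By strength at Prdm14, loop 2 was at 0.00852 with TMM over all features and 0.00848 with no count minimum, and leaving out 1 library gave -0.32 to 0.22. The ranges on leaving out 1 library were -0.34 to 0.69 for loop 3, -0.27 to 0.0175 for loop 5, -1.06 to 0.22 for loop 7 and -0.10 to 0.0319 for the start-site anchor. At Zfp42, loop 3 was at 0.0310 with library totals, 0.0420 with TMM over all features and 0.0421 with no count minimum, and leaving out 1 library gave -0.23 to 0.14. The same ranges were -0.58 to 0.00450 for loop 4, -0.11 to 0.49 for loop 6 and -1.85 to 0.16 for the longest loop. The causes were not tested. Counts per loop limit these values: the SE of a tested loop ran from 0.28 to 0.67 on the log2 scale at Prdm14 and from 0.24 to 0.63 at Zfp42.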
